A study of Homo sapiens with 64 samples.

Results

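SUDHL6, a human B-cell lymphoma line, was treated in vitro with OTX015, and its response after 12 h was set against its response after 2 h. OTX015 is a small molecule that keeps the bromodomain and extra-terminal (BET) proteins from binding acetylated histones. The comparison used 12 of the 64 Illumina expression arrays of the series, chosen by the line, agent and time in their labels. They formed 4 groups of 3 arrays: OTX015 for 12 h, DMSO for 12 h, OTX015 for 2 h and DMSO for 2 h. DMSO is the solvent used as vehicle. For each gene the OTX015 minus DMSO difference at 2 h was subtracted from that at 12 h, on the log2 scale. A positive value of this difference of differences means that the gene stood higher relative to DMSO at 12 h than at 2 h. The same line was also profiled after 1 h and without treatment, and SUDHL2, a second lymphoma line, was profiled in the same way. Those arrays do not enter the difference itself, and their own responses are given beside it. They did enter the normalization, the choice of probes and the estimate of the spread behind each test. The sources used here give no dose of OTX015. The labels number the arrays of a group as experiments 1 to 3 and do not say whether each was a culture of its own. The p-values therefore reflect variation between these arrays, which may be technical.

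BET proteins read acetylated lysines on histones and help to bring the elongation factor P-TEFb, the kinase CDK9 with its cyclin T partner, to promoters and enhancers. P-TEFb is held inactive in a complex with HEXIM1, whose transcript is commonly followed as a marker of BET inhibition. In B-cell lymphoma, BET inhibitors are best known for lowering MYC and for raising histone transcripts. RNA abundance after a treatment depends on both synthesis and decay, so short-lived transcripts can move within hours while long-lived ones follow later.

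The 12 arrays had median signals of 88.5 to 107.6, with 34.0 to 41.3% of probes detected, and replicate arrays correlated at 0.983 to 0.991. The DMSO arrays of experiment 1 were lowest in both respects, with 34.0% detected and a median of 88.5 at 2 h, and 34.2% and 89.7 at 12 h. The next lowest values among the 12 arrays were 37.2% and 93.0. Of the B-cell markers tested, 6 of 6 were detected on at least 2 of 3 arrays in each of the 4 groups, as were 17 of 18 germinal centre B-cell genes. Of 2 tested T-cell and NK-cell markers, 7 myeloid markers and 4 stromal and epithelial markers, 0 met that standard. The arrays lay on 2 slides. Experiment 1 was on 1 slide and experiment 3 on the other. In experiment 2 the OTX015 arrays were on the first slide and the DMSO arrays on the second at both times. A slide effect that adds the same amount at both times therefore drops out of the difference of differences. It does not drop out of the response at a single time, where treatment is partly confounded with slide. In bulk RNA, fewer cells that express a gene and less RNA of it per cell cannot be told apart.

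Between 2 h and 12 h the response to OTX015 changed in 1732 of 13393 genes tested, 12.9% of them, with 765 higher at 12 h (5.71%) and 967 lower (7.22%). These genes had an adjusted p below 0.05 in limma's moderated test with Benjamini-Hochberg adjustment, and are said below to have a called difference. The change was at least 2-fold in 418 of them. The median over all genes was 0.0037, and 3333 genes had an unadjusted p below 0.05. Of the 1732, 1515 were measured in all 4 groups, that is, detected on at least 2 of 3 arrays in each. The count was 902 without experiment 1 and 975 without experiment 2. Within the first slide, with 2 OTX015 arrays and 1 DMSO array at each time, 1621 genes had a called difference, and within the second, with 1 and 2, 36 did. Of the 1732 genes, 1 turned its sign within the first slide and 0 within the second. These genes were called from the same arrays, so agreement of sign is partly built in and is no separate support. OTX015 against DMSO gave 805 called genes at 2 h (370 higher, 2.76%, and 435 lower, 3.25%, or 6.01% of those tested in all) and 3596 at 12 h (1862 higher, 13.9%, and 1734 lower, 12.9%, or 26.8% in all). Of the genes called at 2 h, 51.8% were called at 12 h too, and of those called at 12 h, 11.6% had been called at 2 h. These 417 genes had the same sign at both times in 377 cases and opposite signs in 40.

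The calls at 2 h, at 12 h and of the difference sorted the genes into 6 kinds of response. In 40 genes the response turned over, with opposite signs at the 2 times. In 162 it was transient, being called at 2 h and not at 12 h, with a called difference. It faded in 13 genes, with the same sign at both times and a smaller size at 12 h, and it grew in 48. It was called at both times with no called difference in 316 genes, here named lasting, and it came late in 1342, which were called at 12 h and not at 2 h, again with a called difference. A further 2190 genes had at least 1 call in the 3 contrasts without meeting any of these descriptions. Each kind is defined by the values that sort it, so its responses at 2 h and 12 h are given as a description. The calls at 2 h and at 12 h can hold a slide effect, which the main fit does not model. Fitting only the 12 arrays left 19 of the 40 turned genes turned, and adding a block for slide to that fit left 22.

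**Figure D1:**
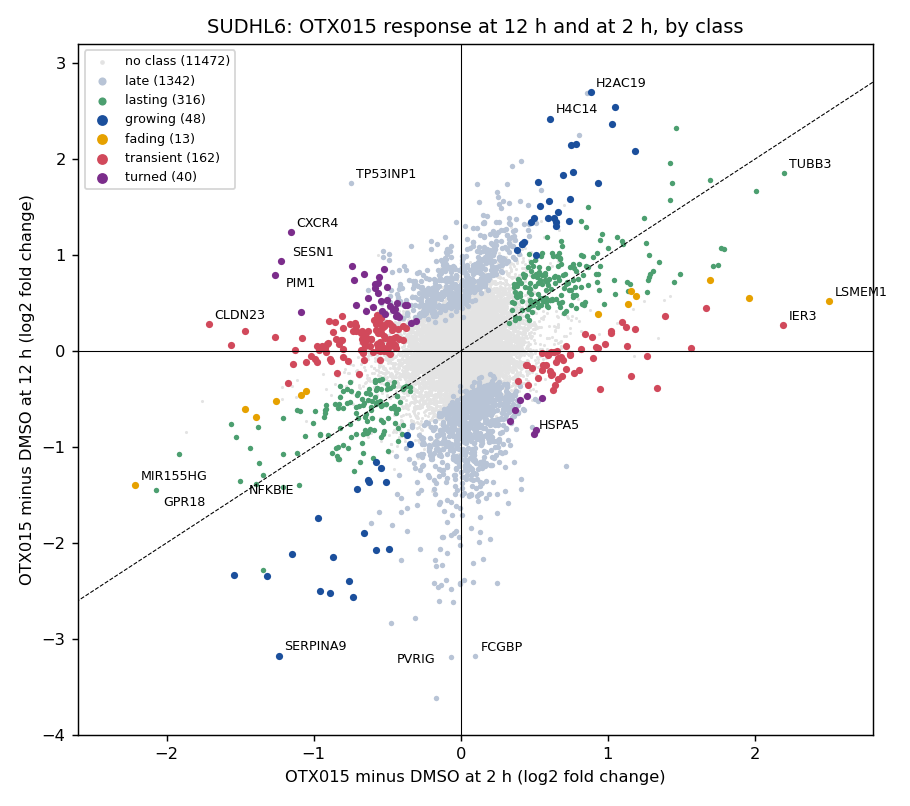
Response of every tested gene in SUDHL6 at 2 h (horizontal axis) and at 12 h (vertical axis), each as OTX015 minus DMSO in log2 units, with 1 point per gene and colours for the 6 kinds of response; the dashed line marks equal responses. The 40 turned genes lie in the upper left and lower right parts, the 162 transient genes along the horizontal axis and the 1342 late genes along the vertical axis.

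The 5 turned genes with the largest rise in the difference were CXCR4, SESN1, PIM1, NINJ1 and TLE4. All were lower in OTX015 than in DMSO at 2 h and higher at 12 h. CXCR4 is the receptor for the chemokine CXCL12 and guides B cells within lymphoid tissue. Its log2 intensity at 2 h was 9.37, 9.46 and 9.18 with OTX015, against 10.76, 10.85 and 9.88 with DMSO. At 12 h it was 9.69, 10.22 and 9.74 with OTX015, against 8.61, 8.80 and 8.53 with DMSO. The groups did not overlap at either time, and their order was opposite. The response was -1.16 ± 0.24 at 2 h and 1.24 ± 0.24 at 12 h (log2 ± SE), and the difference of differences was 2.39 ± 0.34 (adjusted p = 2.5e-06, limma).

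PIM1 encodes a serine/threonine kinase that supports survival downstream of cytokine receptors. It read 10.04, 10.26 and 9.96 with OTX015 at 2 h, against 11.87, 11.50 and 10.67 with DMSO, and 10.18, 10.51 and 10.36 with OTX015 at 12 h, against 9.60, 9.49 and 9.57 with DMSO. The OTX015 arrays were close together at both times, whereas DMSO arrays were high at 2 h and low at 12 h. From 2 h to 12 h the OTX015 arrays moved by 0.27 ± 0.17 and the DMSO arrays by -1.79 ± 0.17, which gave a difference of 2.06 ± 0.24 (adjusted p = 6.2e-08). SESN1, a sestrin that restrains mTORC1 under stress, had the same form. It read 7.0, 6.92 and 7.44 with OTX015 at 2 h, against 8.35, 8.29 and 8.39 with DMSO, and 6.91, 6.70 and 6.59 with OTX015 at 12 h, against 6.06, 5.66 and 5.67 with DMSO. In untreated cells SESN1 read 5.68, 5.61 and 5.74, close to the DMSO arrays at 12 h and below the other 9 arrays. Its difference was 2.16 ± 0.20 (adjusted p = 1.8e-10), with a move of -2.54 ± 0.14 in DMSO and -0.39 ± 0.14 in OTX015.

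NINJ1, a membrane protein that drives rupture of the plasma membrane in dying cells, had a response of -0.74 ± 0.14 at 2 h and 0.89 ± 0.14 at 12 h. TLE4, a Groucho-family corepressor, had -1.09 ± 0.13 at 2 h and 0.41 ± 0.13 at 12 h. The groups of neither gene overlapped at either time. TLE4 moved by 0.31 ± 0.13 in the OTX015 arrays and by -1.18 ± 0.13 in the DMSO arrays.

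The 7 genes that turned the other way, higher with OTX015 at 2 h and lower at 12 h, were led by HSPA5, ZC3H12A, HDHD5, ABHD6 and RNF214. HSPA5 is the main chaperone of the endoplasmic reticulum, also known as BiP. It read 8.32, 8.38 and 7.98 with OTX015 at 2 h, against 7.84, 7.75 and 7.60 with DMSO. At 12 h it read 6.65, 6.39 and 6.49 with OTX015, against 7.26, 7.22 and 7.64 with DMSO. The 3 OTX015 arrays were the highest of the 12 at 2 h and the lowest at 12 h. Its difference was -1.36 ± 0.19 (adjusted p = 1.2e-06), and here most of the move was in the OTX015 arrays, by -1.72 ± 0.13, with -0.36 ± 0.13 in DMSO. ZC3H12A, an endoribonuclease that cuts messages of inflammatory cytokines, had a response of 0.51 ± 0.15 at 2 h and -0.82 ± 0.15 at 12 h. HDHD5, ABHD6, a lipid hydrolase, and RNF214, a RING finger protein, had differences of -1.07 ± 0.14, -1.04 ± 0.20 and -0.98 ± 0.16. RNF214 moved by 0.10 ± 0.11 in the OTX015 arrays and by 1.09 ± 0.11 in the DMSO arrays.

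**Figure D2:**
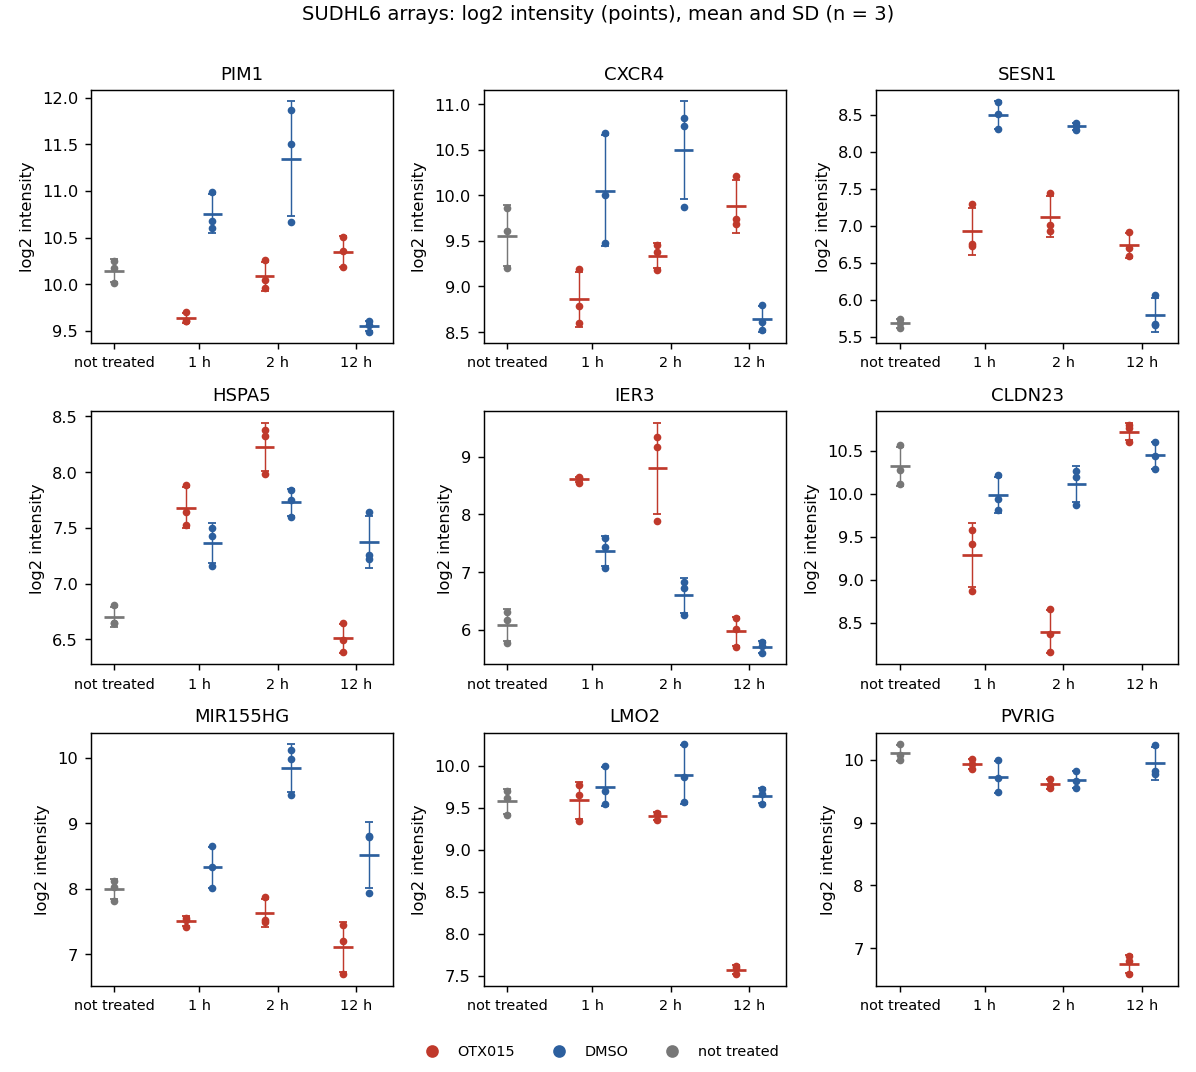
Log2 intensity of 9 genes on each SUDHL6 array (points), with the mean (line) and SD (bar, n = 3), for untreated cells and for OTX015 and DMSO at 1, 2 and 12 h. PIM1, CXCR4 and SESN1 lie below DMSO at 2 h and above it at 12 h with OTX015, HSPA5 does the opposite, IER3 and CLDN23 differ from DMSO at 2 h, MIR155HG is lower at both times, and LMO2 and PVRIG separate most at 12 h.

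Both arms of the comparison contributed to the called differences. Among the 765 genes with a higher difference, the change from 2 h to 12 h was called in the OTX015 arrays alone in 446. It was called in the DMSO arrays alone in 147, in neither in 33 and in both in 139, of which 66 moved in opposite directions. Among the 967 with a lower difference, the counts were 509, 228, 51 and 179, with 91 of the last opposite. Over all 13393 genes they were 2593, 1293, 7824 and 1683, with 157 of the last opposite. A missing call in 1 arm does not show that this arm stayed unchanged. The OTX015 arrays moved more than the DMSO arrays in 549 of the 765 and in 682 of the 967, against 7603 of all 13393 genes. Over all genes, 4276 changed with time under OTX015 (31.9%), 2270 of them upward (16.9%) and 2006 downward (15%). Under DMSO 2976 did (22.2%), 1658 upward (12.4%) and 1318 downward (9.84%). The largest part of the difference lay in DMSO for the turned genes CXCR4, SESN1, PIM1, NINJ1 and TLE4, and in OTX015 for CLDN23, IER3, PVRIG and FCGBP.

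**Figure D3:**
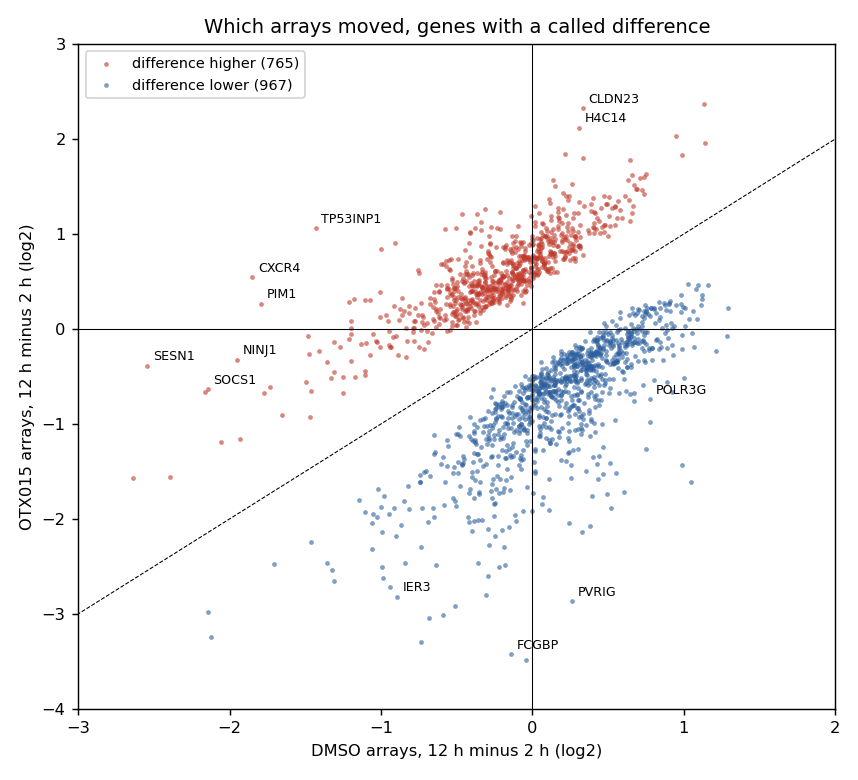
Change from 2 h to 12 h in the DMSO arrays (horizontal axis) and in the OTX015 arrays (vertical axis), in log2 units, for the 1732 genes with a called difference; red marks the 765 higher and blue the 967 lower, and the dashed line marks equal changes. CXCR4, SESN1, PIM1 and NINJ1 lie far to the left, where DMSO moved, while CLDN23, PVRIG and FCGBP lie near the vertical axis, where the OTX015 arrays moved most.

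Transient responses were lower with OTX015 at 2 h in 109 genes and higher in 53. IER3, an immediate early gene of the stress response, was the highest-ranked of those that rose. It read 9.16, 9.33 and 7.89 with OTX015 at 2 h, against 6.72, 6.83 and 6.26 with DMSO, and 6.01, 6.21 and 5.70 with OTX015 at 12 h, against 5.72, 5.60 and 5.80 with DMSO. The groups were apart at 2 h and overlapped at 12 h. The response was 2.19 ± 0.21 at 2 h and 0.27 ± 0.21 at 12 h, with a difference of -1.93 ± 0.29 (adjusted p = 5.9e-06). MIDN, or midnolin, which brings transcription factors of the immediate early response to the proteasome, had 1.34 ± 0.19 at 2 h and -0.39 ± 0.19 at 12 h. SOX4, a transcription factor needed in early B-cell development, had 1.16 ± 0.15 and -0.26 ± 0.15, and SYBU, a linker of cargo to kinesin, 0.95 ± 0.17 and -0.40 ± 0.17. LBH had 0.77 ± 0.23 and -0.23 ± 0.23, and its groups overlapped at both times.

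Among transient genes that fell at 2 h, CLDN23, a claudin of tight junctions, had the largest difference. It read 8.37, 8.66 and 8.17 with OTX015 at 2 h, against 10.26, 10.20 and 9.87 with DMSO, and 10.76, 10.80 and 10.60 with OTX015 at 12 h, against 10.44, 10.60 and 10.29 with DMSO. At 2 h all 3 OTX015 arrays lay more than 1 log2 unit below every DMSO array, and at 12 h they lay just above. The difference was 1.99 ± 0.24 (adjusted p = 9.3e-08). IFNLR1, a subunit of the interferon lambda receptor, had a response of -1.56 ± 0.11 at 2 h and 0.07 ± 0.11 at 12 h. ADNP2, a homeobox zinc finger protein, had -1.08 ± 0.11 and 0.13 ± 0.11, and the non-coding host gene MIR9-2HG had -0.81 ± 0.19 and 0.36 ± 0.19. Regulators of the germinal centre and of NF-kB were in this group too. BCL6, the repressor that maintains germinal centre B cells, had -0.99 ± 0.18 at 2 h and -0.08 ± 0.18 at 12 h. REL, the NF-kB subunit c-Rel, had -0.95 ± 0.17 and 0.05 ± 0.17, and CXCR5, the receptor that leads B cells to follicles, had -1.18 ± 0.21 and -0.34 ± 0.21. The OTX015 and DMSO arrays of these 3 genes did not overlap at 2 h.

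The fading genes include the microRNA host transcripts MIR155HG and MIR3142HG. MIR155HG carries miR-155, and MIR3142HG carries miR-146a, a brake on NF-kB signalling, and miR-3142. Their mature products are shown because the arrays measured the hosts and not the products. RefSeq (GRCh38.p14) gives the mature sequences with bases 2 to 8, the seed that pairs with target messages, in capitals.
hsa-miR-155-5p: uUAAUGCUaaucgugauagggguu
hsa-miR-146a-5p: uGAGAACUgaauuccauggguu
hsa-miR-3142: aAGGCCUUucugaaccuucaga
They lie at chr21:25573983-25574006, chr5:160485372-160485393 and chr5:160474492-160474513, all on the plus strand, and their seeds differ. MIR155HG, whose product miR-155 promotes B-cell activation and is raised in several B-cell lymphomas, read 7.49, 7.87 and 7.53 with OTX015 at 2 h, against 10.12, 9.98 and 9.43 with DMSO. At 12 h it read 7.44, 7.21 and 6.69 with OTX015, against 8.79, 8.81 and 7.93 with DMSO. The OTX015 arrays were below the DMSO arrays at both times. The response was -2.21 ± 0.18 at 2 h and -1.40 ± 0.18 at 12 h, and the difference was 0.82 ± 0.26 (adjusted p = 0.028). The DMSO arrays moved by -1.33 ± 0.18 and the OTX015 arrays by -0.52 ± 0.18. Without replicate 3 of DMSO at 12 h the adjusted p of MIR155HG was 0.16, and without 1 of 6 other single arrays it also missed the threshold. MIR3142HG had a response of -1.26 ± 0.15 at 2 h and -0.52 ± 0.15 at 12 h, with a difference of 0.74 ± 0.21 (adjusted p = 0.014).

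Other fading genes that fell included RAB30, a Golgi GTPase, ZFP36L1, which directs decay of AU-rich messages, and GPATCH3. RAB30 had -1.47 ± 0.14 at 2 h and -0.60 ± 0.14 at 12 h, and ZFP36L1 had -1.39 ± 0.16 and -0.69 ± 0.16. GPATCH3 had -1.05 ± 0.15 and -0.41 ± 0.15. Fading genes that rose included the stress-inducible chaperone HSPA1B, with 1.69 ± 0.18 at 2 h and 0.74 ± 0.18 at 12 h, whose sequence is nearly that of HSPA1A, so that the signal may come from both. ULBP2, a ligand of the killer-cell receptor NKG2D, had 1.14 ± 0.16 and 0.49 ± 0.16. CDR2 had 0.93 ± 0.11 and 0.39 ± 0.11, and ING1, a reader of methylated histone H3, had 1.16 ± 0.12 and 0.62 ± 0.12. LSMEM1 had the largest 2 h response of these. It read 8.09, 8.21 and 7.60 with OTX015 at 2 h, against 5.52, 5.41 and 5.45 with DMSO, and 6.22, 5.49 and 5.36 with OTX015 at 12 h, against 5.47, 5.24 and 4.81 with DMSO. Its probe was detected on 0 DMSO arrays at 12 h, where it was at least 1.2-fold higher with OTX015, so that its response there and its difference have no exact size.

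Lasting responses were higher with OTX015 in 185 genes and lower in 131. A difference that misses the threshold does not show equal responses, so 95% intervals are given. TUBB3, a beta tubulin typical of neurons, had 2.19 ± 0.27 at 2 h and 1.85 ± 0.27 at 12 h, with an interval of -1.10 to 0.42 for the difference. CSRNP2 had 1.69 ± 0.13 and 1.79 ± 0.13, with an interval of -0.27 to 0.46, although another of its probes gave a difference of the opposite sign, which leaves it uncertain. NFKBIE, an inhibitor that holds NF-kB in the cytoplasm and is itself an NF-kB target, read 8.72, 8.96 and 8.90 with OTX015 at 2 h, against 10.22, 10.55 and 10.32 with DMSO. At 12 h NFKBIE read 8.45, 8.33 and 7.56 with OTX015, against 9.73, 9.66 and 9.01 with DMSO. Its difference was 0.14 ± 0.23, with an interval of -0.31 to 0.60. GPR18, a receptor of lymphocytes, had -2.07 ± 0.33 and -1.45 ± 0.33, and its interval of -0.31 to 1.57 was wide. IL21R, the receptor for interleukin 21, had -1.35 ± 0.16 and -1.29 ± 0.16 (interval -0.41 to 0.52), and GCNT2, an enzyme that branches glycans in germinal centre B cells, -1.39 ± 0.13 and -1.39 ± 0.13 (interval -0.38 to 0.38). TLR1 had -1.91 ± 0.22 and -1.08 ± 0.22, with an interval of 0.20 to 1.47 and a call of the difference under 5 alternatives, among them without replicate 1 of DMSO at 12 h (adjusted p = 0.032). RGS1, which damps chemokine receptor signals, had -1.53 ± 0.30 and -0.90 ± 0.30, with an interval of -0.22 to 1.47 and arrays that overlapped at 12 h. HEXIM1, the inhibitor of P-TEFb named above, read 6.66, 6.64 and 6.54 with OTX015 at 2 h, against 5.93, 5.84 and 5.15 with DMSO, and 6.06, 5.97 and 6.03 with OTX015 at 12 h, against 5.46, 5.77 and 5.37 with DMSO. It was higher with OTX015 at both times, with an interval of -0.96 to -0.01 for the difference, but it was not measured in all 4 groups.

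Growing responses were higher with OTX015 in 27 genes and lower in 21. SERPINA9, or centerin, a serpin of germinal centre B cells, had the largest difference of those that fell. It read 8.05, 7.96 and 8.13 with OTX015 at 2 h, against 8.95, 9.02 and 9.90 with DMSO, and 5.97, 5.52 and 6.10 with OTX015 at 12 h, against 8.77, 8.68 and 9.67 with DMSO. The groups were apart at both times, and more so at 12 h, with a difference of -1.94 ± 0.30 (adjusted p = 9.9e-06). LMO2, a transcriptional adaptor that marks germinal centre B cells, read 9.35, 9.43 and 9.43 with OTX015 at 2 h, against 9.87, 9.56 and 10.25 with DMSO. At 12 h LMO2 read 7.62, 7.59 and 7.52 with OTX015, against 9.54, 9.73 and 9.66 with DMSO, with a difference of -1.58 ± 0.19 (adjusted p = 5.2e-08). GAPT, an adaptor of B cells that binds GRB2, had -0.73 ± 0.19 at 2 h and -2.57 ± 0.19 at 12 h. TNFRSF17, the receptor BCMA, which plasma cells need to survive, had -0.89 ± 0.15 and -2.52 ± 0.15, and KMO, an enzyme of tryptophan breakdown, -0.76 ± 0.16 and -2.40 ± 0.16. Those that rose, besides histone genes, included ZSWIM6, with 1.05 ± 0.14 at 2 h and 2.54 ± 0.14 at 12 h, and the protease inhibitor SERPINE2, with 0.75 ± 0.14 and 2.15 ± 0.14.

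Late responses made up most of the change, with 819 genes lower with OTX015 and 523 higher. PVRIG is known as an inhibitory receptor of T and NK cells. It read 6.79, 6.58 and 6.87 with OTX015 at 12 h, against 9.82, 9.77 and 10.24 with DMSO, and 9.55, 9.69 and 9.60 with OTX015 at 2 h, against 9.82, 9.66 and 9.56 with DMSO. The 3 OTX015 arrays at 12 h lay far below the other 9, which were close together, and the difference was -3.13 ± 0.20 (adjusted p = 9.1e-15). FCGBP, a mucin-like protein that binds the Fc part of IgG, had a response of 0.10 ± 0.18 at 2 h and -3.18 ± 0.18 at 12 h. VPREB3, which takes part in assembly of the pre-B-cell receptor, had -0.05 ± 0.21 and -2.62 ± 0.21, and PTPN6, the phosphatase SHP-1 that damps B-cell receptor signals, -0.31 ± 0.21 and -2.78 ± 0.21. The late genes DDN, ACSL5, CHI3L2, GTF3C6, CEACAM1 and MAPK13 had differences of -2.66, -2.46, -2.42, -2.42, -2.41 and -2.40. For each of these 6 the OTX015 and DMSO arrays overlapped at 2 h and not at 12 h. ACSL5 activates fatty acids, GTF3C6 is a subunit of the RNA polymerase III factor TFIIIC, CEACAM1 is an adhesion receptor with inhibitory motifs, and MAPK13 is a p38 kinase.

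The 4 genes with the largest called differences among those not measured in all 4 groups were FCRL4, CAMP, SLC15A3 and SH2D5. Each was detected on 0 OTX015 arrays at 12 h. FCRL4, an inhibitory Fc receptor-like protein of B cells, read 8.38, 8.47 and 7.82 with OTX015 at 2 h, against 8.41, 8.67 and 8.10 with DMSO, and 4.99, 4.74 and 4.48 with OTX015 at 12 h, against 8.10, 8.70 and 8.25 with DMSO. At 12 h FCRL4 was at least 7.61-fold lower with OTX015. CAMP, an antimicrobial peptide, was at least 3.49-fold lower, SLC15A3, a lysosomal transporter of histidine and peptides, at least 4.74-fold and SH2D5 at least 3.89-fold, although another probe of SH2D5 gave a difference of the opposite sign.

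Among late genes that rose, TP53INP1, a p53 target that promotes arrest and cell death, had the largest positive difference of the measured genes. It read 10.35, 10.43 and 9.03 with OTX015 at 12 h, against 8.42, 8.68 and 7.48 with DMSO, and 8.90, 9.17 and 8.57 with OTX015 at 2 h, against 9.73, 9.99 and 9.16 with DMSO. The groups overlapped at 2 h and not at 12 h, and the difference was 2.49 ± 0.40 (adjusted p = 1.6e-05). NMT2, which attaches myristate to proteins, had 0.11 ± 0.17 at 2 h and 1.74 ± 0.17 at 12 h, and DYRK2, a kinase that phosphorylates p53, had -0.53 ± 0.17 and 1.05 ± 0.17.

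Where called at 2 h or 12 h, histone genes were higher with OTX015, and 10 core histone genes stood higher relative to DMSO at 12 h than at 2 h. Of 42 core histone genes tested, 24 were measured in all 4 groups. Among the 42, 9 were higher with OTX015 at 2 h (2.76% of all genes) and 25 at 12 h (13.9%), and 0 were lower at either time. The difference was higher in 10 of 42 (23.8%, against 5.71% of all genes) and lower in 0, with a median of 0.37, against 0.0037 over all genes. The 10 were H2AC6, H2AC18, H2AC19, H2AC20, H2AC21, H2BC5, H2BC11, H2BC26, H4C14 and H4C15. Between 2 h and 12 h, 11 of the 42 rose and 4 fell in the OTX015 arrays (16.9% and 15% of all genes). In the DMSO arrays 0 rose and 9 fell (12.4% and 9.84%). H2AC19 read 10.04, 9.75 and 9.23 with OTX015 at 2 h, against 9.02, 9.01 and 8.35 with DMSO, and 10.88, 10.84 and 10.02 with OTX015 at 12 h, against 8.43, 8.06 and 7.18 with DMSO. Its OTX015 arrays lay above the DMSO arrays at both times, and the difference was 1.81 ± 0.34 (adjusted p = 1.7e-04). H2AC18 is nearly identical to H2AC19, so the 1.84 ± 0.45 of H2AC18 may come from the same transcripts. H4C14 read 6.65, 6.70 and 6.23 with OTX015 at 2 h, against 5.74, 6.24 and 5.78 with DMSO, and 8.77, 8.91 and 8.25 with OTX015 at 12 h, against 6.53, 6.32 and 5.83 with DMSO. It rose with time in the OTX015 arrays, by 2.12 ± 0.19, and its difference was 1.81 ± 0.26 (adjusted p = 3.1e-06). H2BC11 had 0.35 ± 0.32 at 2 h and 1.93 ± 0.32 at 12 h, with an adjusted p of 0.016 for the difference that became 0.080 without replicate 3 of OTX015 at 2 h. H2BC21, a histone gene whose transcript is often followed as a marker of BET inhibition, was among the lasting genes, with 1.46 ± 0.25 at 2 h, 2.33 ± 0.25 at 12 h and an interval of 0.15 to 1.58 for the difference, which passed the test without replicate 3 of DMSO at 2 h (adjusted p = 0.016). H2AC25 and H2BC8 were lasting too, with responses of 1.96 ± 0.38 and 1.75 ± 0.30 at 12 h and intervals of -0.56 to 1.62 and -0.54 to 1.17. Of 14 linker and variant histone genes, 4 had a higher difference (28.6%, against 5.71%) and 0 a lower one, with a median of 0.12. They were the linker histones H1-2, with 1.18 ± 0.17, and H1-10, the variant H2AJ, with 1.37 ± 0.29, and H3-3A, with 0.34 ± 0.11.

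**Figure D4:**
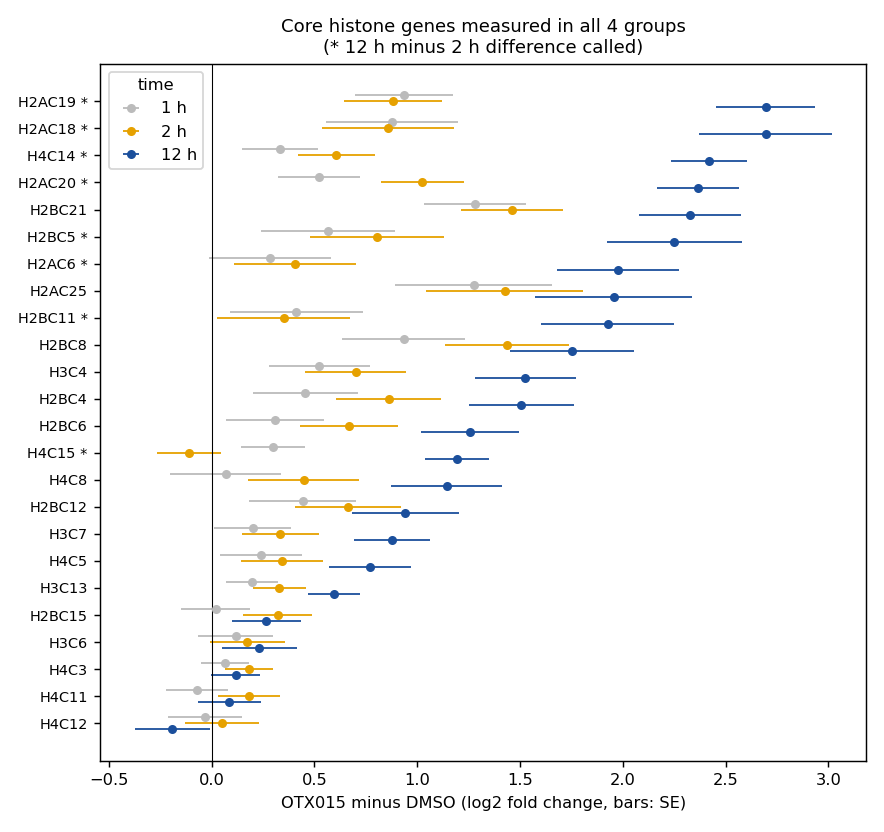
OTX015 minus DMSO at 1, 2 and 12 h, in log2 units with SE bars, for the core histone genes measured in all 4 groups, ordered by the 12 h response; an asterisk marks a called difference between 12 h and 2 h. The 12 h values lie to the right of the 2 h values for the genes in the upper part of the plot, and H4C12, at the bottom, does not differ from 0 by more than about its SE at 1 and 2 h.

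Core histone promoters often hold a CCAAT box and a TATA box, and the promoters of 2 of the genes above are shown because they differ in this. Each runs from 250 bases before to 50 after the RefSeq start (GRCh38.p14), with the letters CCAAT and TATAAA in capitals on either strand, so that ATTGG and TTTATA are also capitals.
H2BC11: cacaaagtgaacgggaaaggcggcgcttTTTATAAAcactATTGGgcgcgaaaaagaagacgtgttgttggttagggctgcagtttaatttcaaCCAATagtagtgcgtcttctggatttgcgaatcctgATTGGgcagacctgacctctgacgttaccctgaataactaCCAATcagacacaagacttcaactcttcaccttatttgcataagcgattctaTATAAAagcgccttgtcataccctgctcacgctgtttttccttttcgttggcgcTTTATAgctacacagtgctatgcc
H4C14: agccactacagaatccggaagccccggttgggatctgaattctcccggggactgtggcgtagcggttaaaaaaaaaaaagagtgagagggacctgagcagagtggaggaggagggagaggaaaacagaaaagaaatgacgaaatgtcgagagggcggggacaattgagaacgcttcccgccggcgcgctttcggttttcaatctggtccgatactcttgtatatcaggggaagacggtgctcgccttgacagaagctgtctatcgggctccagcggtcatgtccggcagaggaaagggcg
The first is chr6:27132746-27133045 on the minus strand and the second chr1:149832407-149832706 on the plus strand. In H2BC11 a CCAAT starts 80 bases and a TATAAA 28 bases before the start, and these letters are not in the H4C14 window. CCAAT was in 8 of 10 promoters of core histone genes with a higher difference and in 24 of 30 of those without a called one, which is 80% of each. TATAAA was in 7 of 10 and 21 of 30, or 70% of each. Of the 10549 tested genes with a promoter in the table, 43.43% held CCAAT and 9.821% TATAAA on either strand.

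Genes of the endoplasmic reticulum stress response had a lower difference in 7 of 18 cases (38.9%, against 7.22% of all genes) and a higher one in 1. At 12 h 8 of the 18 were lower with OTX015 (12.9% of all genes) and 1 was higher (13.9%). The median difference of the list was -0.35. The 7 with a lower difference were the chaperones HSPA5 and CALR, the disulfide isomerase PDIA4, the HSPA5 cofactor SDF2L1, the secreted factor MANF, CRELD2 and the transcription factor XBP1. EDEM1 was the 1 with a higher difference. MANF was transient, with 0.56 ± 0.12 at 2 h and -0.15 ± 0.12 at 12 h. CRELD2 had -0.02 ± 0.14 and -0.97 ± 0.14. XBP1, which also drives plasma cell differentiation, read 7.57, 7.68 and 7.75 with OTX015 at 12 h, against 8.63, 8.65 and 9.10 with DMSO, and 8.21, 8.18 and 8.31 with OTX015 at 2 h, against 8.47, 8.56 and 8.28 with DMSO. The difference was -0.92 ± 0.15 (adjusted p = 2.3e-05), and the groups overlapped at 2 h and were apart at 12 h.

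The promoters of HSPA5, XBP1 and CRELD2 are shown because each holds the ER stress element, CCAAT and CCACG spaced by 9 bases, written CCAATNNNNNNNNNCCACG and searched on both strands. Its fixed letters are in capitals, and every such match overlaps a CCAAT box.
HSPA5: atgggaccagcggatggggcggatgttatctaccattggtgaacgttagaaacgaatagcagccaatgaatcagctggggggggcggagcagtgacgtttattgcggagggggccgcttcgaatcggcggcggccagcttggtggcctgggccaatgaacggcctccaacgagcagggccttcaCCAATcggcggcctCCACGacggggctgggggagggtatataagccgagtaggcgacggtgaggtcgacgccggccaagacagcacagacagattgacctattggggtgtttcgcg
XBP1: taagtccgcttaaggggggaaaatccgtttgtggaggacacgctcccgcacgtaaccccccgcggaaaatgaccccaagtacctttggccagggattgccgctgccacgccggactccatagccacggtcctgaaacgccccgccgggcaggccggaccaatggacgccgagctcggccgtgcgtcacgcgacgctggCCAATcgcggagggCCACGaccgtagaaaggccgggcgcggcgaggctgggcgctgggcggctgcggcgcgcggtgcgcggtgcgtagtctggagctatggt
CRELD2: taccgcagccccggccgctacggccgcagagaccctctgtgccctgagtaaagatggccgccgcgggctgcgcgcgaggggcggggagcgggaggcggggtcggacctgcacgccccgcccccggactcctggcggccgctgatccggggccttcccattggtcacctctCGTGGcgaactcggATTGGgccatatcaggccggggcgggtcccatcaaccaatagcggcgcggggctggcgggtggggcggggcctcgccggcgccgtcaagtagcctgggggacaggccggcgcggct
They lie at chr9:125241294-125241593 on the minus strand, chr22:28800520-28800819 on the minus strand and chr22:49918384-49918683 on the plus strand (RefSeq, GRCh38.p14). The match starts 66, 52 and 80 bases before the start, in CRELD2 on the opposite strand. The element was in 4 of the 7 promoters of genes with a lower difference (HSPA5, CALR, CRELD2 and XBP1) and in 3 of the 11 others of the list. It was in 19 of 10549 tested genes with a promoter, or 0.1801%. A match describes the letters and shows no binding.

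Genes of the p53 response and cell cycle inhibitors had a higher difference in 8 of 27 cases (29.6%, against 5.71% of all genes) and a lower one in 1, with a median of 0.39. At 12 h 16 were higher with OTX015 (13.9% of all genes) and 0 lower. Besides SESN1 and TP53INP1, the 8 held the cyclin-dependent kinase inhibitor CDKN1B, with 0.81 ± 0.22, the DNA damage sensor XPC, with 1.09 ± 0.17, TP53I3, with 1.11 ± 0.24, CCNG1, and the death receptors TNFRSF10B and FAS. TOB2 was the 1 with a lower difference. CDKN1A, the kinase inhibitor p21, read 9.72, 9.69 and 8.98 with OTX015 at 12 h, against 9.23, 8.98 and 8.45 with DMSO, and 11.95, 12.14 and 11.65 with OTX015 at 2 h, against 12.00, 12.16 and 11.27 with DMSO. CDKN1A changed with time in both arms, by -2.45 ± 0.18 and -2.93 ± 0.18, and its difference was 0.48 ± 0.25 (adjusted p = 0.24; 0.030 without replicate 3 of DMSO at 2 h). Over the list, 11 of 27 fell with time in the OTX015 arrays (15% of all genes) and 14 in the DMSO arrays (9.84%).

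MYC, the growth regulator that BET inhibitors are known to lower, read 9.45, 10.14 and 9.09 with OTX015 at 2 h, against 10.94, 10.996 and 10.38 with DMSO. At 12 h it read 10.39, 10.58 and 10.59 with OTX015, against 10.46, 11.19 and 11.42 with DMSO. Its groups were apart at 2 h and overlapped at 12 h. The response was -1.35 ± 0.22 at 1 h (adjusted p = 3.2e-04), -1.21 ± 0.22 at 2 h (adjusted p = 1.7e-04) and -0.50 ± 0.22 at 12 h (adjusted p = 0.092), and the difference of 0.71 ± 0.31 did not pass the test (adjusted p = 0.14). It did without replicate 2 of OTX015 at 2 h (adjusted p = 0.025). Of 10 genes of the MYC network tested, 1 had a higher difference, the MAX partner MGA with 0.78 ± 0.24, and 0 a lower one. Ribosome biogenesis genes and other MYC targets had a lower difference in 12 of 31 cases (38.7%, against 7.22% of all genes) and a higher one in 0, with a median of -0.44. At 2 h 6 of the 31 were lower with OTX015 (3.25% of all genes) and at 12 h 23 were (12.9%). Between 2 h and 12 h 4 rose and 7 fell in the OTX015 arrays (16.9% and 15% of all genes), and 19 rose in the DMSO arrays (12.4%). POLR3G, a subunit of RNA polymerase III, read 7.27, 7.36 and 7.33 with OTX015 at 12 h, against 8.66, 8.35 and 8.59 with DMSO, and 8.06, 8.02 and 8.09 with OTX015 at 2 h, against 7.58, 7.70 and 7.98 with DMSO. Its OTX015 arrays were above the DMSO arrays at 2 h and below them at 12 h, with a difference of -1.51 ± 0.20 (adjusted p = 4.0e-07). The nucleolar protein NOP16 had -0.73 ± 0.17, the nucleoside kinase NME1 -0.81 ± 0.14 and the purine enzyme PAICS -0.85 ± 0.14, the last uncertain because another of its probes differed in sign.

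Genes of DNA replication had lower differences where called, and genes of mitosis higher ones. Of 30 E2F and DNA replication genes, 7 had a lower difference (23.3%, against 7.22% of all genes) and 0 a higher one, with a median of -0.28, and at 12 h 19 were lower with OTX015, against 12.9% of all genes. POLE2, a subunit of DNA polymerase epsilon, had -1.52 ± 0.22, the helicase subunit MCM5 -0.93 ± 0.19, its partner CDC45 -0.91 ± 0.22 and the methylation maintenance factor UHRF1 -0.91 ± 0.29. Of 30 mitosis genes, 4 had a higher difference (13.3%, against 5.71% of all genes) and 0 a lower one, with a median of 0.21. They were AURKA, the centrosomal kinase, with 0.73 ± 0.18, CENPA, the centromeric histone, with 0.73 ± 0.22, the spindle protein ASPM with 0.75 ± 0.24 and the cyclin CCNB2 with 0.72 ± 0.20. All 4 lost the call when the arrays were scaled to their 75th percentile (adjusted p of 0.053 to 0.16, limma). They also lost it in the fit of only the 12 arrays (adjusted p of 0.069 to 0.15). The OTX015 and DMSO arrays of AURKA, ASPM and CCNB2 overlapped at 12 h. The mitosis genes fell with time in 10 of 30 cases in OTX015 (15% of all genes) and in 17 in DMSO (9.84% of all genes). The regulator E2F1 had a difference of -0.04 ± 0.27 (adjusted p = 0.95), and MYB, a transcription factor of dividing blood cells, -1.0 ± 0.23 (adjusted p = 0.0017).

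Genes of B-cell receptor signalling had lower differences where called, and germinal centre genes went both ways. Of 21 genes of B-cell receptor signalling, 8 had a lower difference (38.1%, against 7.22% of all genes) and 0 a higher one, with a median of -0.22 and 0 called at 2 h. The co-receptor CD72, which inhibits signalling, read 6.69, 6.90 and 6.22 with OTX015 at 12 h, against 9.05, 8.72 and 8.66 with DMSO, and 9.34, 9.37 and 8.64 with OTX015 at 2 h, against 9.48, 9.10 and 8.52 with DMSO. The OTX015 arrays at 12 h were the lowest 3 of the 12, with a difference of -2.29 ± 0.29 (adjusted p = 2.2e-07). The inhibitory receptors FCGR2B and CD22 had -0.86 ± 0.18 and -0.85 ± 0.22. Of 6 B-cell markers tested, 3 had a lower difference, namely MS4A1, or CD20, with -0.72 ± 0.23, CD79A with -0.54 ± 0.16 and CD22, and 0 a higher one, with a median of -0.36. These 3 were measured in all 4 groups. With the mean of the detected probes, MS4A1 had -0.28 (adjusted p = 0.34, limma) and CD79A -0.36 (adjusted p = 0.15), and neither was called. CD22 lost its call without experiment 2 (adjusted p = 0.059) or experiment 3 (adjusted p = 0.065). Of 18 germinal centre genes, BCL6, BACH2 and GCSAM had a higher difference (16.7%, against 5.71% of all genes) and LMO2, SERPINA9, RGS13, SPIB and ID3 a lower one (27.8%, against 7.22%), with a median of -0.17. GCSAM, which slows germinal centre B-cell movement, had 1.06 ± 0.21, SPIB, an ETS factor, -1.09 ± 0.25 and RGS13 -0.95 ± 0.22. TCF3, the E protein of B-cell development, had -0.61 ± 0.20 (adjusted p = 0.032). Activated B-cell and plasma cell genes were higher in 4 of 21 cases (19%, against 5.71% of all genes) and lower in 7 (33.3%, against 7.22%), with a median of 0.03. CD38, a surface enzyme that breaks down NAD, had 1.05 ± 0.20, and MZB1, a chaperone of antibody secretion, -1.43 ± 0.19. IRF4, a regulator of plasma cell fate, had 0.16 ± 0.28 (adjusted p = 0.78).

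Among NF-kB targets, 6 of 28 had a lower difference (21.4%, against 7.22% of all genes) and 1, REL, a higher one, with a median of -0.10. At 2 h 11 of 28 were lower with OTX015 (3.25% of all genes) and at 12 h 12 were (12.9% of all genes). LTB, the membrane partner of lymphotoxin, read 10.51, 10.61 and 10.30 with OTX015 at 12 h, against 12.57, 12.68 and 12.88 with DMSO, and 11.93, 11.85 and 12.20 with OTX015 at 2 h, against 11.96, 12.12 and 12.40 with DMSO. The OTX015 arrays at 12 h were the lowest 3 of the 12, with a difference of -2.07 ± 0.16 (adjusted p = 1.4e-12). LTA, lymphotoxin alpha, had -1.15 ± 0.13 at 2 h and -2.11 ± 0.13 at 12 h, the activation marker CD83 had -0.97 ± 0.15 and -1.74 ± 0.15, and PLEK, or pleckstrin, had -0.61 ± 0.21 and -1.79 ± 0.21. TNF had -0.42 ± 0.16 and -1.29 ± 0.16. NFKBIA, the main inhibitor of NF-kB, had a difference of -0.78 ± 0.26 (adjusted p = 0.038) with no call at either time, and the adjusted p was 0.19 without replicate 3 of DMSO at 2 h. TNFAIP3, a brake on NF-kB signalling, had -1.12 ± 0.27 at 2 h and -0.48 ± 0.27 at 12 h, with a difference of 0.64 ± 0.38 (adjusted p = 0.30; 0.0040 without replicate 3 of DMSO at 2 h). CCR7 and CD69, a homing receptor and an early activation marker, had differences of -0.08 ± 0.64 (adjusted p = 0.96) and 0.58 ± 0.62 (adjusted p = 0.62).

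In the Toll-like receptor pathway 7 of 21 genes had a lower difference (33.3%, against 7.22% of all genes), with a median of -0.16. TRAF6 and TAB2 had a higher one (9.52%), near the 5.71% of all genes. At 12 h 13 of 21 were lower with OTX015, against 12.9% of all genes. TLR10, a receptor of B cells, had -0.58 ± 0.15 at 2 h and -2.08 ± 0.15 at 12 h, LY86, a partner of CD180, 0.12 ± 0.20 and -1.49 ± 0.20, and the kinase IRAK1 -0.18 ± 0.11 and -1.34 ± 0.11. MYD88, the adaptor of the pathway, read 7.09, 7.30 and 7.03 with OTX015 at 12 h, against 7.89, 7.79 and 7.88 with DMSO, and 7.47, 7.68 and 7.39 with OTX015 at 2 h, against 7.57, 7.47 and 7.48 with DMSO. Its difference was -0.72 ± 0.17 (adjusted p = 0.0024). Interferon response genes had a lower difference in 7 of 22 cases (31.8%, against 7.22% of all genes) and a higher one in 0, with a median of -0.15. The antiviral genes OAS2, ISG15 and MX2 had -1.34 ± 0.25, -1.07 ± 0.21 and -1.12 ± 0.18, and the exonuclease ISG20 -1.23 ± 0.34. In antigen presentation 3 of 21 were lower (14.3%, against 7.22%) and 0 higher, with a median of -0.40. They were HLA-DOB, a chaperone of class II loading, with -1.72 ± 0.23, the class II regulator CIITA, with -0.97 ± 0.27, and the immunoproteasome subunit PSMB8, with -1.06 ± 0.18, which another probe contradicted in sign.

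JAK-STAT and cytokine genes had a higher difference in 5 of 22 cases (22.7%, against 5.71% of all genes) and a lower one in 1 (4.55%, against 7.22%), with a median of 0.11. SOCS1, the inhibitor of JAK kinases, read 6.90, 6.89 and 6.56 with OTX015 at 12 h, against 5.88, 6.0 and 5.54 with DMSO, and 7.45, 7.75 and 7.04 with OTX015 at 2 h, against 8.15, 8.15 and 7.54 with DMSO. The move with time was -0.63 ± 0.17 in OTX015 and -2.14 ± 0.17 in DMSO, with a difference of 1.51 ± 0.24 (adjusted p = 1.4e-05). STAT3 had 0.03 ± 0.19 at 2 h and 0.87 ± 0.19 at 12 h, and the kinase PIM2 -0.32 ± 0.23 and 0.68 ± 0.23. Chemokines and migration receptors had a higher difference in 3 of 19 cases (15.8%, against 5.71%), namely CXCR4, CXCR5 and S1PR1. They had a lower one in 2 (10.5%, near the 7.22% of all genes), RGS13 and the integrin ITGA4, with a median of 0.06. At 2 h 9 of 19 were lower with OTX015 (3.25% of all genes) and at 12 h 7 were (12.9%). Immediate early genes had a higher difference in 2 of 26 (7.69%, near the 5.71% of all genes) and a lower one in 4 (15.4%, against 7.22%), with a median of -0.16. At 2 h 9 of 26 were higher with OTX015 (2.76% of all genes) and at 12 h 4 were (13.9%). FOSB had 1.02 ± 0.18 at 2 h and 0.18 ± 0.18 at 12 h, EGR1 1.34 ± 0.32 and 0.14 ± 0.32, and FOS, not measured in all 4 groups, 1.38 ± 0.23 and 0.53 ± 0.23. The difference of FOSB was called and missed the threshold without 1 of 5 single arrays, while those of EGR1 (adjusted p = 0.074) and FOS (adjusted p = 0.082) were not called but passed under 9 alternatives each. JUNB, detected on 0 DMSO arrays at 2 h, was at least 1.60-fold higher with OTX015 there. JUND had 0.46 ± 0.16 and 1.33 ± 0.16, and the phosphatase DUSP2 -0.18 ± 0.14 and -1.06 ± 0.14.

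Genes of the BCL2 family, which decide survival at the mitochondrion, had a higher difference in 3 of 19 cases (15.8%, against 5.71% of all genes) and a lower one in 1 (5.26%, against 7.22%), with a median of 0.12. The death-promoting members HRK, BMF and BBC3 had differences of 1.27 ± 0.34, 0.75 ± 0.23 and 0.66 ± 0.22. BMF had -0.35 ± 0.16 at 2 h and 0.40 ± 0.16 at 12 h, and BBC3 -0.40 ± 0.16 and 0.26 ± 0.16. Neither was called at either time, and their groups overlapped at both. BBC3 fell with time in both arms, by -0.45 ± 0.16 in OTX015 and -1.11 ± 0.16 in DMSO. HRK lost its call without experiment 2 (adjusted p = 0.086, limma) or experiment 3 (adjusted p = 0.060). PMAIP1, or NOXA, was transient, with 0.66 ± 0.17 at 2 h and -0.30 ± 0.17 at 12 h. BCL2L11, or BIM, had a difference of 0.16 ± 0.28 (adjusted p = 0.78). BCL2 itself was detected on 0 OTX015 arrays and 1 DMSO array at 12 h, so that its response there and its difference have no exact size. The response at 12 h was called lower with OTX015 (adjusted p = 0.035, limma), and the difference was not called. Of the 4 detected probes of BCL2, 2 gave a difference of the opposite sign. Among BET proteins and P-TEFb control genes 2 of 18 had a higher difference (11.1%, against 5.71%) and 0 a lower one, with a median of 0.33. The cyclin T gene CCNT2 was transient, with -0.48 ± 0.13 at 2 h and 0.13 ± 0.13 at 12 h and another probe of opposite sign, and the kinase CDK13 had -0.20 ± 0.19 and 1.07 ± 0.19. The BET genes BRD2 and BRD3 had differences of 0.19 ± 0.18 (adjusted p = 0.56) and 0.34 ± 0.23 (adjusted p = 0.39), and SERPINI1, a further transcript followed in BET inhibition, had 0.76 ± 0.31 (adjusted p = 0.10), which passed under 6 alternatives, among them without replicate 3 of OTX015 at 12 h (adjusted p = 0.018).

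Heat shock genes had a lower difference in 3 of 15 cases (20%, against 7.22% of all genes) and a higher one in 0, with a median of -0.30. Besides HSPA1B, they were its co-chaperone DNAJB1, with 1.12 ± 0.15 at 2 h and 0.25 ± 0.15 at 12 h, and the small heat shock protein HSPB1, with -0.04 ± 0.14 and -1.49 ± 0.14. Amino acid stress genes were lower in 2 of 21 cases (9.52%, near the 7.22% of all genes) and higher in 0, with a median of -0.25. The 2 were the pseudokinase TRIB3, with -1.30 ± 0.18, and the serine synthesis enzyme PSAT1, with -0.63 ± 0.17. Cholesterol synthesis genes were higher in 2 of 17 cases (11.8%, against 5.71%) and lower in 0, with a median of 0.15. They were SC5D, with 0.85 ± 0.25, and INSIG1, with 0.58 ± 0.18, which another probe contradicted in sign. Of 12 reference genes, SDHA was higher, with 0.57 ± 0.16, and IPO8 lower, with -0.57 ± 0.19, and the median was 0.07. In the T-cell and NK-cell, myeloid, and stromal and epithelial lists 0 genes had a called difference in either direction, with medians of 0.11, -0.10 and -0.0096.

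**Figure D5:**
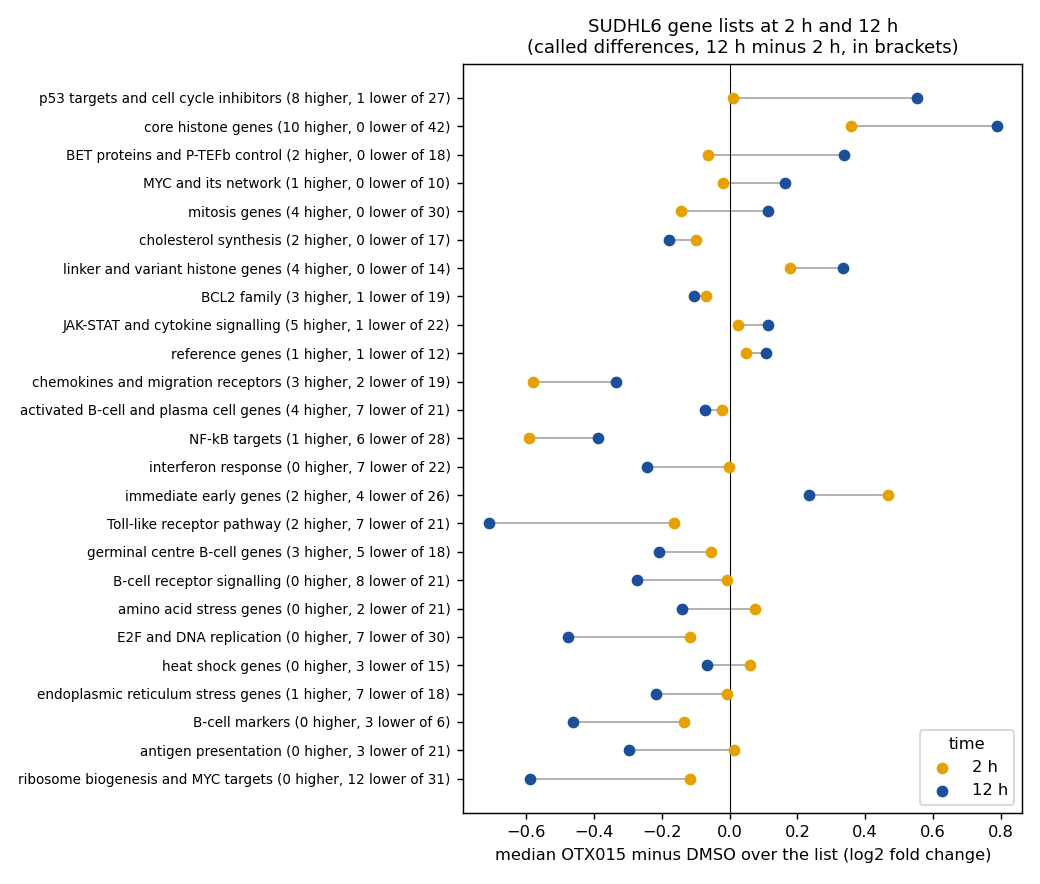
Median OTX015 minus DMSO response of each gene list at 2 h and at 12 h, in log2 units, ordered by the median difference of differences; brackets give the genes with a called difference of those tested. The p53 and core histone lists lie highest at 12 h, and the Toll-like receptor and ribosome biogenesis lists lowest.

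Of the 159 genes that the naming rule gave and that are mentioned here, 133 had a called difference, and 34 of these lost it when 1 of the 12 arrays was left out. Their highest adjusted p was then between 0.053 and 0.21. Beside MIR155HG, H2BC11 and NFKBIA they were MIR3142HG, ZFP36L1, GPATCH3, HSPA1B, ULBP2, CDR2 and ING1 of the fading genes, the transient genes LBH, CXCR5, JUNB, FOSB, CCNT2, CENPA and MGA, the growing gene CD83, and the late genes ASPM, CCNB2, CD79A, H3-3A, INSIG1, IPO8, ISG20, ITGA4, MS4A1, PIM2, STAT3, TCF3 and UHRF1. BBC3, BMF and SC5D, which met no description of a kind, complete the 34. CXCR4, SESN1, PIM1, HSPA5, IER3, CLDN23, SERPINA9, LMO2, PVRIG, TP53INP1, H2AC19 and H4C14 kept their call without each of the 12 arrays.

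The response after 1 h of treatment was not used to sort the genes, and its arrays are not among the 12. Those arrays did help to set the estimate of the spread. At 1 h 108 of 13393 genes were called (23 higher, 0.172%, and 85 lower, 0.635%, or 0.806% in all), and 49.5% of all genes had a positive response. Of the 33 genes that turned from lower at 2 h to higher at 12 h, 32 had a negative response at 1 h and 7 were called lower. Of the 7 that turned the other way, 6 had a positive one. Transient genes that were higher at 2 h were positive at 1 h in 44 of 53 cases, with 5 called, and those lower at 2 h were negative in 100 of 109, with 18 called. Lasting genes that were higher were positive in 162 of 185 cases and those lower were negative in 118 of 131. Late genes were near an even split, with 239 of 523 of those higher at 12 h positive and 395 of 819 of those lower negative. CXCR4 had -1.2 ± 0.24 at 1 h, PIM1 -1.12 ± 0.17, SESN1 -1.57 ± 0.14, IER3 1.24 ± 0.21 and CLDN23 -0.70 ± 0.17, each of the sign it had at 2 h. LMO2, PVRIG and FCGBP, with -0.16 ± 0.13, 0.20 ± 0.14 and 0.03 ± 0.18, had no called response at 1 h.

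In SUDHL2 the same difference of differences was called in 2762 genes (1398 higher, 10.4%, and 1364 lower, 10.2%, or 20.6% in all), and 52.8% of all genes had a positive value. Its OTX015 array of experiment 1 at 2 h lay on another slide than the experiment 1 arrays of the other groups in this difference. A slide effect therefore does not drop out of the SUDHL2 difference or of the test between the lines. Of the 523 late genes that were higher at 12 h in SUDHL6, 261 were called higher in SUDHL2 and 5 lower. Of the 819 that were lower, 396 were called lower and 16 higher. Of the 33 turned genes that were higher at 12 h, 19 were called higher and 2 lower, and of the 109 transient genes that were lower at 2 h, 39 and 5. The test of the difference between the lines, SUDHL6 minus SUDHL2, was called in 574 genes (276 higher, 2.06%, and 298 lower, 2.23%, or 4.29% in all). It contains the SUDHL6 values that sorted the genes, so its calls are not counted by kind of response. CXCR4 had a difference of 2.39 ± 0.34 in SUDHL6 and 0.13 ± 0.34 in SUDHL2 (adjusted p = 0.0027 for the difference between lines). PIM1 had 2.06 ± 0.24 in SUDHL6 and -0.02 ± 0.24 in SUDHL2 (adjusted p = 9.2e-05). For SESN1 the values were 2.16 ± 0.20 in SUDHL6 and 1.31 ± 0.20 in SUDHL2 (adjusted p = 0.087), and for HSPA5 -1.36 ± 0.19 in SUDHL6 and -1.32 ± 0.19 in SUDHL2 (adjusted p = 0.97). Neither of these passed the test. FCGBP was -3.28 ± 0.26 in SUDHL6 and 1.15 ± 0.26 in SUDHL2 (adjusted p = 2.2e-11), with opposite signs.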

How the data were processed

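Total RNA was profiled on single-channel Illumina arrays. Per the labels' protocols, a Qiagen RNeasy kit was used for extraction and an Ambion TotalPrep kit for labelling. The deposited signal table holds 1 linear intensity per probe and array, and the authors' processed table holds log2 values, with their making not given in the sources used here. Of the 12 arrays, 12 had processed values that matched their own signals best, with medians of 6.64. Scale and centring of that table were not stated.

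Signals were corrected with limma 3.58.1 (R 4.3.3) by normexp with offset 16. Quantile normalization ran over the 64 arrays together, before log2 was taken. The plan allowed for deposited detection p-values. In their place each array's background below its mode was mirrored, and probes with a p below 0.01 on at least 3 of 42 arrays were kept. This left 26033 probes and 13393 genes, each with the brightest of its detected probes by mean. The platform annotation gave 30113 of 47231 probes 1 symbol, 8 several and 17110 none.

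A mean per group was fitted to the 42 arrays of SUDHL2 and SUDHL6 (14 groups), with lmFit and eBayes with an intensity trend, and 2-sided tests were adjusted by Benjamini-Hochberg at 0.05. A fold against a group in which the probe was detected on 0 arrays is a lower bound. Array number limits the precision.

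Genes were named by rule: the 10 measured genes with the largest called difference in each direction, 5 per kind of response and direction, 4 per list, 4 not measured in all 4 groups and a set of 35. Other called members of lists are named without values, after their values were seen. A few of the genes this rule names are not reported here. The comparison, members, 28 lists and this rule were chosen with earlier results of these data known. Alternatives tried were other background corrections, scalings, filters, probe rules, fits, blocks by replicate or slide, single slides, and arrays or experiments left out. The procedure was tested on simulated data.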

Additional observations from a re-analysis of the deposited data

Results flagged for a closer look

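The change in the OTX015 response between 2 h and 12 h was tested for a difference between the lines, SUDHL6 minus SUDHL2. Of the 150 measured genes named above, 47 passed at an adjusted p below 0.05, against 4.29% of all genes (limma, interaction contrast, log2 scale, n = 3 arrays per group). Many of these genes were named for their change in SUDHL6, which enters the same contrast, so their count is a description. Rise and fall below give the sign of this change in response, the difference of differences, and not a move of intensity with time. SOCS1, for example, fell with time in both arms of SUDHL6, as given above. Each value in brackets is the change in SUDHL6 minus that in SUDHL2. A slide effect does not drop out of it, because of the slide layout of SUDHL2 given above.

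Genes with a rise in SUDHL6 and a fall in SUDHL2, in estimate, were SOCS1 (3.84), STAT3 (2.59), TLE4 (2.43), MYC (2.43), IRF4 (2.31), BMF (1.80), BCL2L11 (1.69), GCSAM (1.28), CD38 (1.25), IL21R (1.25), RAB30 (0.96) and PIM1 (2.08). SOCS1 was 1.51 ± 0.24 in SUDHL6 and -2.33 ± 0.24 in SUDHL2, and STAT3 was 0.85 ± 0.27 in SUDHL6 and -1.74 ± 0.27 in SUDHL2 (± SE). Of these genes, MYC, IRF4, BCL2L11 and IL21R had no called change in SUDHL6 itself. Some estimates lay near 0, such as 0.05 for IL21R in SUDHL6 and -0.02 for PIM1 in SUDHL2. A larger rise in SUDHL6 than in SUDHL2 was found for CXCR4 (2.26), CLDN23 (1.25), NINJ1 (0.98) and XPC (0.81). The fall was smaller in SUDHL6 for DUSP2 (1.59), MS4A1 (1.2), RGS13 (1.04) and NOP16 (0.80).

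The estimates had the opposite arrangement, a fall in SUDHL6 and a rise in SUDHL2, for FCGBP (-4.43), TNF (-3.38), LTB (-2.97), CEACAM1 (-2.93), PMAIP1 (-1.85), ISG15 (-1.63), SPIB (-1.30), CD22 (-1.23) and LTA (-1.05). TNF was -0.88 ± 0.22 in SUDHL6 and 2.51 ± 0.22 in SUDHL2. A larger fall in SUDHL6 was found for PTPN6 (-2.21), SERPINA9 (-1.68), CD72 (-1.54), CHI3L2 (-1.38), VPREB3 (-1.36), ZC3H12A (-1.30), PVRIG (-1.29), LY86 (-1.29), KMO (-1.26), HSPB1 (-1.25), SOX4 (-1.24), OAS2 (-1.19) and GTF3C6 (-1.07). The rise was larger in SUDHL2 for MIR3142HG (-2.92), GPR18 (-2.45), H2AJ (-1.90), H1-2 (-1.77) and H2BC21 (-1.72), of which the histone genes H2AJ, H1-2 and H2BC21 rose by 3.27, 2.95 and 2.59 in SUDHL2. What sets the lines apart here was not tested.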

How the results depend on the processing

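Across the alternatives, 0 of the named genes reversed the direction of a difference that was called in the main fit or in the alternative. A turn of sign in a gene with a call in neither fit was not counted. The alternatives reuse the same arrays, so agreement in direction is partly built in. Of 133 named genes with a called difference, 79 kept it under every alternative except within the second slide, where 16 did, with 1 OTX015 and 2 DMSO arrays a time. Of 26 without one, 10 gained a call under at least 1 alternative. Fitting only the 12 arrays called 1170 genes, percentile scaling 1542 and the authors' processed values 1819.

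The fit of only the 12 arrays gave 489 genes with a higher difference and 491 called at 2 h, with 20 turned, 78 transient, 3 fading, 207 lasting and 22 growing. Quantile normalization of those arrays only gave 488, 491, 20, 80, 4, 208 and 19 in the same order. The 21 SUDHL6 arrays alone gave 59 genes called at 1 h and 7 fading, and no filter on dim probes gave 8 fading. Within the first slide 26 genes were growing. Within the second slide 36 genes had a called difference (4 higher, 32 lower), 37 were called at 2 h and 743 at 12 h, 402 changed with time under OTX015 and 640 under DMSO, and 0 were turned, 2 transient, 0 fading, 20 lasting, 0 growing and 34 late. In that slide 1367 genes had an unadjusted p below 0.05 for the difference in limma's test.

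Same-numbered arrays correlated in their deviations from the group means at 0.0958 to 0.44, with a median of 0.22 (n = 18 pairs). Arrays with different numbers correlated at -0.33 to 0.15, with a median of -0.13 (n = 36 pairs), and 12 of 12 arrays correlated best with their own number. The rule used asked for every same-numbered value to be above 0.1, and the lowest was just under it. The main p-values therefore leave pairing out, although these values do not show that the arrays are unpaired. The labels give the numbers and do not say whether arrays with the same number were handled together. With the replicate block, fitted to the 12 arrays, 2158 genes had a called difference, with 69 turned, 25 fading and 79 growing. In that fit 1 named gene lost its call and 7 gained one (CDKN1A, EGR1, FOS, H2BC21, RGS1, SERPINI1 and TLR1). Of these, H2BC21, RGS1 and TLR1 were described above among the lasting genes.

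Leaving out 1 array or 1 experiment gave 902 to 1701 genes with a called difference (367 to 745 higher, 535 to 965 lower), 458 to 835 called at 2 h, 2583 to 3642 at 12 h, 107 to 146 at 1 h, 3047 to 4335 changed with time under OTX015 and 1717 to 3015 under DMSO. The kinds held 13 to 46 turned, 65 to 173 transient, 3 to 17 fading, 189 to 302 lasting, 19 to 50 growing and 721 to 1318 late genes, and the line difference 373 to 629. The line difference was not run in fits without SUDHL2, within slides or with blocks. The causes of these moves were not tested.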

Other observations

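The DMSO arrays themselves changed between 2 h and 12 h, which the difference of differences subtracts. Under OTX015 17 of 26 immediate early genes fell with time, against 15% of all genes, and under DMSO 18 fell, against 9.84% of all genes, and 0 rose in either arm. Of 28 NF-kB targets, 20 fell and 1 rose under OTX015, and 18 fell and 1 rose under DMSO, where 16.9% and 12.4% of all genes rose. CD69, an early activation marker, read 9.96, 9.89 and 7.52 with DMSO at 2 h and 6.09, 6.23 and 5.18 with DMSO at 12 h, against 6.63, 6.24 and 5.53 in untreated cells. SESN1 read 8.35, 8.29 and 8.39 with DMSO at 2 h, against 5.68, 5.61 and 5.74 untreated. FOSB moved by -2.15 ± 0.18 under DMSO and by -2.99 ± 0.18 under OTX015. These values are given without a test against the untreated arrays, which have no matched time.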
